A study of Mus musculus with 24 samples.

Results

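Nkx2-3 and Prrx2 are homeobox genes that the study's table of mesothelium-enriched probes names through 3 probes, 2 for Nkx2-3 (scl53104.2_253-S, here the first probe, and scl0018089.2_54-S, the second) and 1 for Prrx2 (scl21082.4.1_25-S). These 3 of the 46120 probes of the Illumina Mouse Sentrix-6 array, or 2 of the 8313 genes with a named probe, were followed over all 24 arrays. RNA came from male C57BL/6 mice 7 weeks of age, for which no treatment or transgene is named, and each of 8 tissues was measured on 3 arrays. The tissues were mesothelium of the peritoneum, mesothelium of the pleura combined with that of the pericardium, and lung, liver, heart, bladder, skeletal muscle and subcutaneous adipose tissue. Mesothelial tissue was dissected from many mice and pooled, and it is not stated if replicate arrays came from separate RNA preparations, so the p-values measure a spread between arrays that may be technical. The table was drawn up from these same arrays by a high signal in mesothelium over each other tissue, so the excess of the 3 probes over the other tissues is given as a description and supports nothing.

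Homeobox genes encode transcription factors that bind DNA through a homeodomain and set position and cell identity in the embryo, and many stay active in the adult tissue. Nkx2-3 belongs to the NK2 class. In the mouse it is expressed in the mesoderm of the gut and in the spleen, and spleen and gut development and the vascular addressin Madcam1 depend on it. Prrx2 is a paired-related factor of embryonic mesenchyme, which acts together with its paralog Prrx1 in the skeleton of the face and limbs. Mesothelium is the sheet of cells that lines the body cavities, and it derives from mesoderm.

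The genes lie on different chromosomes. In the mouse build GRCm38.p6, RefSeq places Nkx2-3 on chromosome 19 from 43612325 to 43615892 and Prrx2 on chromosome 2 from 30845064 to 30881251. The 250 bases before the RefSeq start of Nkx2-3, and a window of the same length for Prrx2, are shown because both genes were listed for the same tissue. Capitals mark CCAAT and GGGCGG on either strand, and both windows are printed on the plus strand, 5′ to 3′. The Nkx2-3 window is chr19:43612075-43612324. The Prrx2 window is chr2:30845117-30845366, which lies inside the annotated span of Prrx2, after the start given above, and so is not upstream of that start.
Nkx2-3: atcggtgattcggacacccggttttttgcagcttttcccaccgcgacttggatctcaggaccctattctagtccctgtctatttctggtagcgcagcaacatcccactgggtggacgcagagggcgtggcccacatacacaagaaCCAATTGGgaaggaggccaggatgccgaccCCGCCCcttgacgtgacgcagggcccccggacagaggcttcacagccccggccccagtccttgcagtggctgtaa
Prrx2: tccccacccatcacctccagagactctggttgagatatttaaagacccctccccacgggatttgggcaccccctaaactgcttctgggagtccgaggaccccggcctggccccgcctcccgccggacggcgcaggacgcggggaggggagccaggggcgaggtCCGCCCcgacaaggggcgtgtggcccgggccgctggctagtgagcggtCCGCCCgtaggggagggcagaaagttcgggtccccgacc

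The Nkx2-3 window held CCAAT on both strands, 105 and 102 bases before the start, as matches that share bases, and the reverse complement of GGGCGG 75 bases before the start. The Prrx2 window held no CCAAT and the reverse complement of GGGCGG 87 and 39 bases before the base that follows the window. Among 32851 RefSeq windows of the same length 33.8% held CCAAT on either strand and 32.7% held GGGCGG. Neither window held TATAAA, present in 12.4% of all windows, or TAATTA, a core of the sites of many but not all homeodomains, present in 4.84%. GC content was 60% for Nkx2-3 with 14 CpG dinucleotides and 70% for Prrx2 with 21, against medians of 52.4% and 6 over all windows. These matches describe the letters of the windows and were not linked to the array values.

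Nkx2-3 was detected in peritoneal mesothelium and in none of the other tissues. A probe counts as detected on an array when fewer than 0.01 of the negative-control probes were brighter. The background-subtracted signal of the first probe, before normalization, was 773.7, 1161.9 and 982.8 on the 3 peritoneal arrays. On the other 21 arrays it lay between -60.7 and 17.3, where values below 0 are weaker than the subtracted background. The second probe read 178.5, 181.6 and 179.6 on the peritoneal arrays and between -60.8 and -5.9 on the other 21. Both probes were thus detected on 3 of 3 peritoneal arrays and on 0 of 21 others, a pattern that 0.154% of all 46120 probes showed. This pattern is close to what the table selected for and is a description.

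After normalization, with every level from here on in log2 units, the first Nkx2-3 probe was at 9.74, 10.27 and 10.21 in peritoneal mesothelium, a mean of 10.07 ± 0.289 (SD, n = 3). In pleural and pericardial mesothelium it was at 4.80, 4.73 and 4.86. The 3 peritoneal arrays lay 4.32 above the highest of the other 21 arrays, a lung array at 5.42. The second probe was at 7.68, 7.61 and 7.63 in peritoneal mesothelium and at 4.90, 4.81 and 4.93 in pleural and pericardial mesothelium. Its peritoneal arrays lay 2.58 above all others, the highest of which, from skeletal muscle, was at 5.03. In 1.4% of all probes the peritoneal arrays lay above all other arrays.

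**Figure D1:**
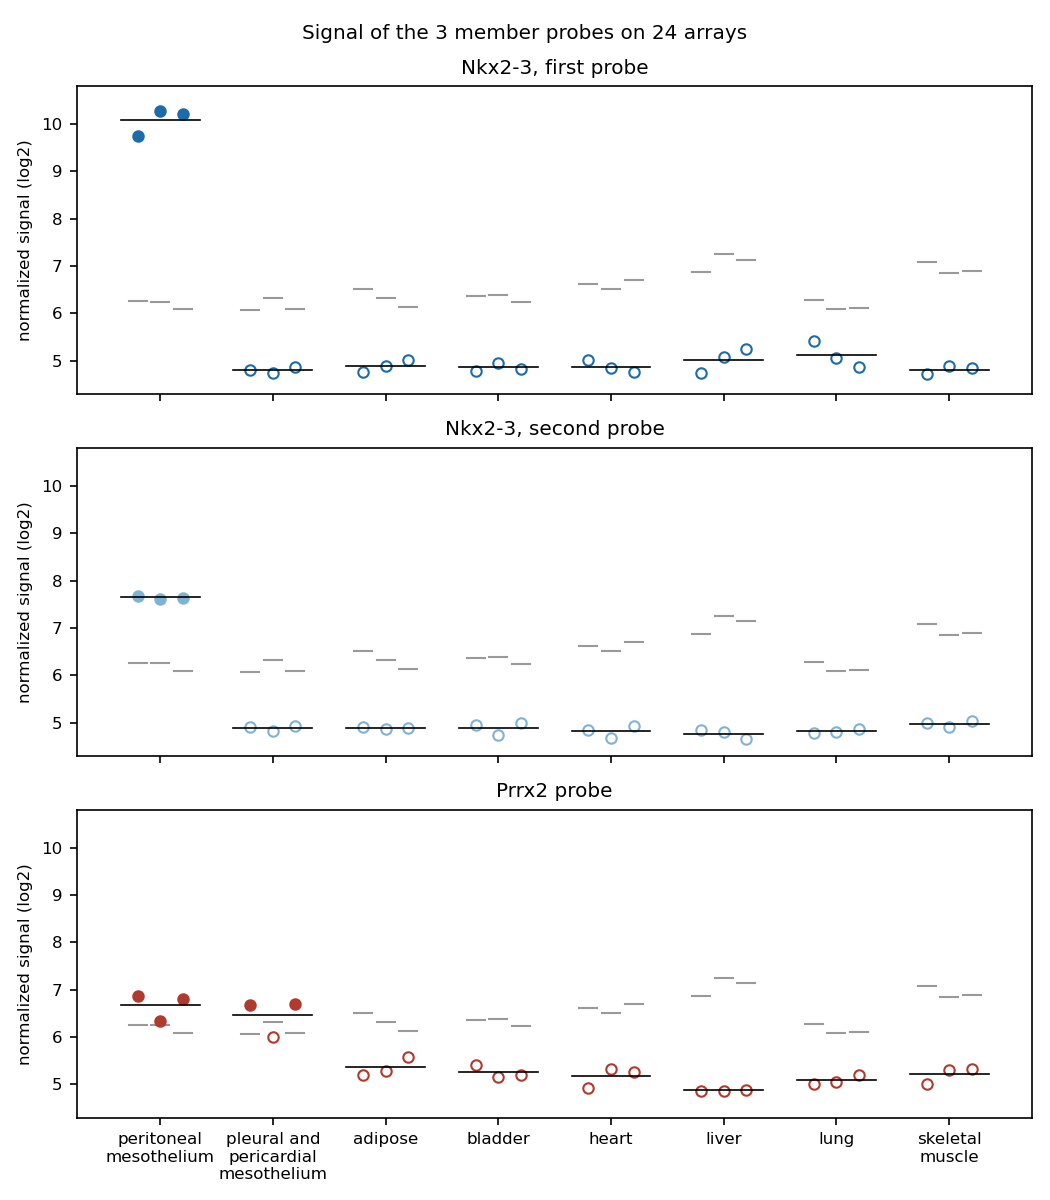
Normalized log2 signal (vertical axis) of the 3 member probes on the 3 arrays of each of 8 tissues (horizontal axis), 1 panel per probe. Filled circles are detected, open circles are not, black lines are tissue means and short grey lines give the lowest signal of any detected probe on that array, for example 6.09 on peritoneal replicate 3 and 7.24 on liver replicate 2.

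The 2 Nkx2-3 probes gave the same picture with different spans. Over the 24 arrays their log2 signals correlated at a Pearson r of 0.984, and over the 8 tissue means at 0.993. These values rest on the peritoneal arrays, and over the other 21 arrays, all below detection, r was -0.54. Both probes measured the same RNA and are not replicates of a condition. The first probe spanned 0.53 over the peritoneal arrays and was lowest on replicate 1, while the second spanned 0.07 and was highest there.

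Prrx2 was detected in both sources of mesothelium, close to the limit of detection. Its signal before normalization was 90.0, 61.7 and 95.8 in peritoneal mesothelium and 81.2, 47.4 and 99.1 in pleural and pericardial mesothelium. On the 18 arrays of the other tissues it was between -34.1 and 27.7. It was detected on 3 of 3 peritoneal and on 2 of 3 pleural and pericardial arrays, and on 0 of 18 others. The array that missed was replicate 2, with a detection p of 0.0291, and at a threshold of 0.05 all 6 mesothelium arrays were detected and the 18 others were not. The nearest of the others was adipose replicate 3, with a detection p of 0.0681.

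The log2 level of Prrx2 was 6.88, 6.34 and 6.80 in peritoneal mesothelium, with a mean of 6.67 ± 0.292 (SD, n = 3). It was 6.68, 6.00 and 6.69 in pleural and pericardial mesothelium, with a mean of 6.46 ± 0.397. The 2 sources overlapped, and replicate 2 was the lowest array in each. All 6 mesothelium arrays lay above the 18 others, by 0.43 at the closest point, where the highest of the others was adipose replicate 3 at 5.57. In 0.353% of all probes the 6 mesothelium arrays lay above the 18 others.

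The comparison of the mesothelium sources with each other asks whether a gene marks mesothelium in general or that of one cavity. It was not the comparison that made the table, although the table's class of probes enriched in 1 source only, which holds Nkx2-3, builds in part of it. Differences were tested with limma's moderated statistic over all 46120 probes and called at an adjusted p under 0.05 with a B-statistic, the log odds of a difference, above 0. By this rule 2.16% of all probes were higher in the peritoneal source and 1.42% were lower there. Both Nkx2-3 probes were called higher in peritoneal mesothelium, and Prrx2 was not called.

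The first Nkx2-3 probe was higher in peritoneal mesothelium by 5.28 (SE 0.153, 95% interval 4.96 to 5.60) on the log2 scale, with a limma adjusted p of 2.82e-14. The second was higher by 2.76 (SE 0.0883, 95% interval 2.58 to 2.95), with an adjusted p of 1.13e-13. Because no pleural and pericardial array was detected, the ratios are lower bounds. With each such array set at the lowest signal of any detected probe on it, Nkx2-3 was at least 15.1-fold higher by the first probe and at least 2.80-fold higher by the second. These sizes hold for the noise estimate used, since with 10 probes of irregular detection scores in that estimate the log2 differences were 2.20 and 0.37.

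Prrx2 differed between the sources by 0.21 (SE 0.176), with a 95% interval from -0.16 to 0.58 and an adjusted p of 0.763. This interval does not show that the levels were equal, and it leaves room for a level up to 0.58 higher in peritoneal mesothelium. Arrays with the same replicate number varied together in the 2 sources, and with the number as a block the call for each of the 3 probes was the same.

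Against the other tissues the description is as follows. By the table's rule (B-statistic above 0 and 2-fold or more in each of the 6 comparisons) 0.692% of all probes were enriched in the peritoneal source, 0.438% in the other and 0.108% in both, and the Nkx2-3 probes fell in the first of these sets and Prrx2 in the last. The first Nkx2-3 probe was higher in peritoneal mesothelium by 4.96 in the closest comparison, with lung, and by 5.26 in the widest, with skeletal muscle. As lower bounds the ratios were at least 7.94-fold over liver, where the limit of detection was highest, to at least 15.1-fold over lung. The second probe was higher by 2.66 over skeletal muscle to 2.88 over liver, or at least 1.47-fold over liver to at least 2.80-fold over lung. Its smallest excess dropped to 0.36 when 10 probes with irregular detection scores entered the noise estimate, a setting under which that of Prrx2 was 0.13 and 0.11 in the 2 sources.

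Prrx2 was higher in peritoneal mesothelium by 1.31 over adipose, the closest tissue, to 1.79 over liver, and in pleural and pericardial mesothelium by 1.10 over adipose to 1.58 over liver. As lower bounds the peritoneal level was at least 1.28-fold that of adipose, 1.27-fold that of bladder, 1.04-fold that of heart and 1.43-fold that of lung. No ratio can be given over liver and skeletal muscle, where the weakest detected signals of 6.84 to 7.24 exceeded the mean Prrx2 level in mesothelium. For pleural and pericardial mesothelium the bounds were at least 1.10-fold over adipose, 1.10-fold over bladder and 1.23-fold over lung, with none over heart, liver and skeletal muscle. The pleural and pericardial enrichment lost its 2-fold size without replicate 1, at 0.99, or without replicate 3, at 0.98. It was at 0.71 with a larger offset of 50 before the logarithm, where the peritoneal value was 0.86.

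**Figure D2:**
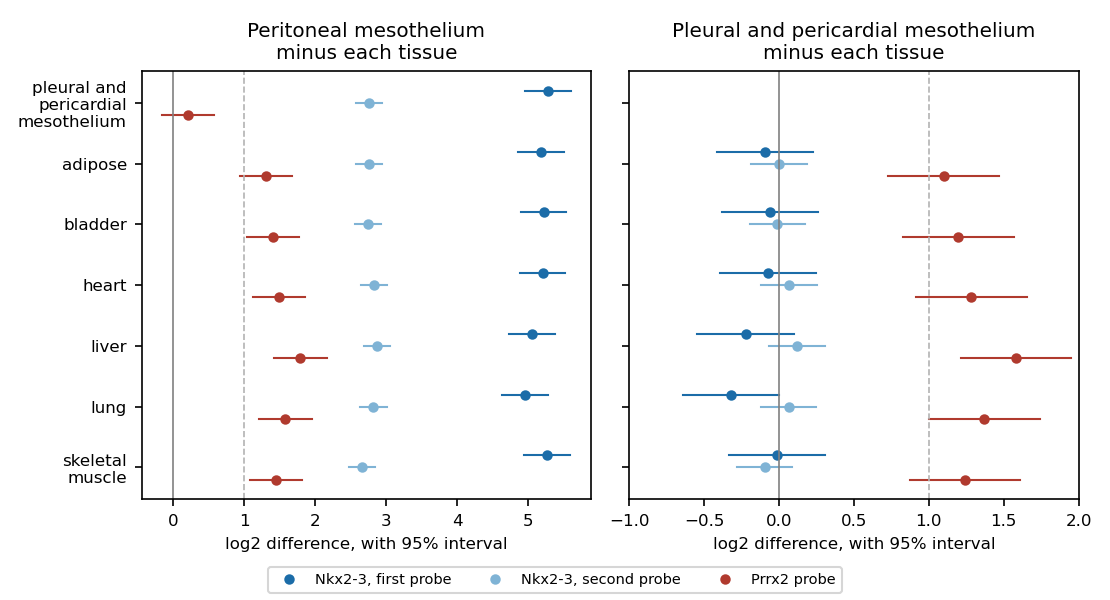
Log2 difference (horizontal axis) of each member probe between peritoneal mesothelium (left) or pleural and pericardial mesothelium (right) and each tissue named on the vertical axis, with 95% intervals from limma. The dashed line marks 2-fold, and in the right panel both Nkx2-3 probes lie between -0.32 and 0.12 while Prrx2 lies between 1.10 and 1.58.

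In pleural and pericardial mesothelium Nkx2-3 could not be told from the 6 other tissues. The first probe differed from them by -0.32 to -0.01 and the second by -0.10 to 0.12, with 0 of 6 comparisons called for each at an adjusted p under 0.05. At an unadjusted p under 0.05 there was 1 for the first probe, with lung, and 0 for the second. Pleural and pericardial mesothelium was the lowest of the 8 tissues by the first probe and the fourth by the second. Neighbours in these orders, other than peritoneal mesothelium, did not differ beyond their spread, and since all these values lie below detection, their order and the lack of calls say little about the RNA.

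The 15 comparisons among the 6 other tissues played no part in the choice of the probes. Of all probes 11.9% to 26.1% were called in a single comparison at an adjusted p under 0.05, and 47.6% in at least 1 of the 15. No comparison was called for any of the 3 probes, and at an unadjusted p under 0.05 there were 0 for the first Nkx2-3 probe, 1 for the second and 2 for Prrx2. The largest difference of the first probe was 0.31 between lung and skeletal muscle (adjusted p = 0.172, limma). For the second it was 0.22 between skeletal muscle and liver (adjusted p = 0.0993). For Prrx2 it was 0.48 between adipose and liver (adjusted p = 0.0583). The 95% intervals extended 0.32, 0.18 and 0.37 to either side of these differences.

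Since no array of these tissues was detected, the lack of calls does not show that the levels were alike. The Prrx2 means of adipose at 5.36, bladder at 5.26, skeletal muscle at 5.22, heart at 5.18, lung at 5.09 and liver at 4.88 followed each other with gaps that were not called. Some alternative settings called between 1 and 3 of the 15 comparisons for Prrx2, for example with the authors' own normalized values, where 1 was called. For Nkx2-3 below detection the means ran from 4.80 to 5.12 by the first probe and from 4.76 to 4.98 by the second.

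Markers of other organs were detected in the mesothelium samples, and their levels are given beside those of the members. The 23 probes of gut and pancreas epithelium (defensins, mucins, Zg16, Reg3b, Clps and Spink3) were detected on the peritoneal arrays, 23, 22 and 19 of them. Their summed signal in log2 units was 16.16, 16.04 and 13.26 on peritoneal replicates 1, 2 and 3 and 9.69 to 9.74 in pleural and pericardial mesothelium. Both this list and Nkx2-3 were thus high in the same tissue. The study's table names the genes of the list, like Nkx2-3, as enriched in the peritoneal source only. This shared pattern was selected on these arrays and supports nothing. On replicate 3, the lowest array for the list, the first Nkx2-3 probe was at 10.21 and the second at 7.63. With replicate 3 as the only peritoneal array, an alternative added after the data were seen, the excess over pleural and pericardial mesothelium was 5.42 and 2.75, and this array too had 19 of the 23 probes detected. Apoa1, an apolipoprotein of liver and intestine, was at 12.76, 11.01 and 9.12 in peritoneal and at 6.83, 7.71 and 7.56 in pleural and pericardial mesothelium. Markers of gut muscle and stroma (Actg2, Des and Myh11) had no named probe and were not analysed here, and the part of gut, pancreas or liver RNA in the Nkx2-3 signal was not tested.

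The 8 probes of the mesothelium list (Wt1, Msln, Upk3b, Lrrn4, Muc16 and Aldh1a2), genes that the study's table selected on these arrays, were all detected on all 6 mesothelium arrays. Their summed signal in log2 units was 15.22, 15.13 and 15.43 in peritoneal and 14.02, 13.85 and 14.13 in pleural and pericardial mesothelium. The thymus list of 4 probes (Rag1, Dntt, Prss16 and Tbata) holds genes that the table names as enriched in the pleural and pericardial source only. It summed to 12.09, 9.82 and 11.06 in pleural and pericardial mesothelium and to 7.21 to 7.51 in peritoneal mesothelium. The 300 immunoglobulin probes summed to 18.22 to 18.73 in pleural and pericardial and 14.25 to 14.85 in peritoneal mesothelium. Myh6, a myosin of heart muscle, was at 5.83, 7.92 and 9.04 in pleural and pericardial mesothelium, where replicates 2 and 3 were detected, and at 4.90 to 5.29 in peritoneal mesothelium. The part of thymus, lymphoid or heart RNA in the Prrx2 level was not tested. In RNA from whole dissected tissue, fewer cells of a type and less RNA per cell cannot be told apart.

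**Figure D3:**
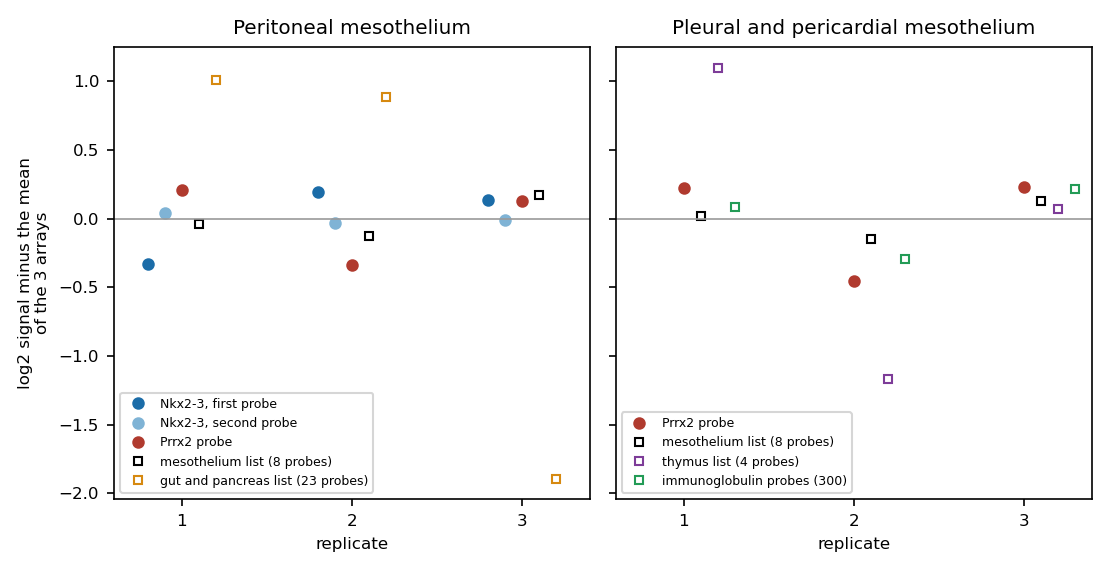
Log2 signal of each array minus the mean of the 3 arrays (vertical axis) by replicate (horizontal axis) in the 2 mesothelium sources, for member probes (filled circles) and summed marker lists (open squares). On peritoneal replicate 3 the gut and pancreas list was at 13.26, against 9.69 to 9.74 in the other source, and the 2 Nkx2-3 probes were at 10.21 and 7.63.

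Other homeobox genes were compared over a list of 63 probes of 58 genes. Names came from the study's tables, or from an NCBI Gene number in the probe identifier looked up in RefSeq, which gave the same gene as the tables for 92 of 97 probes that had both. Of the 63 probes 24 passed detection on the full set of 3 arrays in some tissue, and 35 were detected on no array. Between the mesothelium sources 5 of the 63 (7.94%) were called higher in peritoneal mesothelium and 1 (1.59%) was called lower, beside 2.16% and 1.42% of all probes. Among the detected probes these shares were 20.8% and 4.17%, beside 5.97% and 3.83% of all 15537 detected probes. The median difference was 0.17 over the 24 detected homeobox probes and 0.03 over all detected probes.

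Isl1, a LIM-homeodomain factor of heart progenitors, motor neurons and pancreatic islets, was at 11.15, 11.42 and 11.51 in peritoneal mesothelium and at 8.35, 8.15 and 7.64 in pleural and pericardial mesothelium. It was higher in the former by 3.31 (SE 0.377, adjusted p = 6e-06, limma). Unlike Nkx2-3 it was detected on all arrays of both sources and of bladder. Isl1 is also named by the study's table, so its excess over the other tissues was selected.

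Hoxa7 and Hoxd4, which help to set position along the body axis, were higher in peritoneal mesothelium too. Hoxa7 was at 9.93, 10.35 and 9.68 against 7.01, 7.53 and 6.95, a difference of 2.82 (SE 0.25, adjusted p = 2.28e-07). Hoxd4 was at 8.42, 8.14 and 8.07 against 5.90, 6.17 and 5.93, where 0 of 3 arrays were detected, so that it was at least 4.15-fold higher (fitted difference 2.21, adjusted p = 4e-07). Neither was particular to mesothelium, since their bladder means were 9.44 and 8.59. Isl1, Hoxa7 and Hoxd4 were called under all 9 alternative settings and without any 1 of the 24 arrays.

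The remaining calls lay at the threshold. Hlx was higher by 1.32 (adjusted p = 0.00714) and Hoxd8 by 1.13 (adjusted p = 0.00842), and Satb1, a chromatin organizer of T cells, was lower in peritoneal mesothelium, with a difference of -2.31 (adjusted p = 0.00684). The Hlx call was lost without any of 15 single arrays, the Hoxd8 call without any of 21 and the Satb1 call without any of 17. With the replicate number as a block Hoxd8 and Satb1 were no longer called (adjusted p = 0.0127 and 0.00989, limma, with B not above 0), which left 0 homeobox probes lower in peritoneal mesothelium and 4 higher. Like Satb1, the thymus list was lower in the peritoneal source, at 7.21 to 7.51, than in the other, at 9.82 to 12.09. The study's table chose the genes of the list for a higher signal in that source than in each tissue outside mesothelium. Their low level in those tissues was thus built in and says nothing about Satb1. The Satb1 mean was 11.54 in pleural and pericardial mesothelium, 11.59 in skeletal muscle, 11.26 in bladder and 10.73 in adipose. It was 9.79 in heart, 9.17 in lung and 5.16 in liver. In all tissues other than mesothelium the list lay at 7.16 to 7.65, with 0 of its probes detected. The part of the thymus list in the Satb1 difference was not tested.

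**Figure D4:**
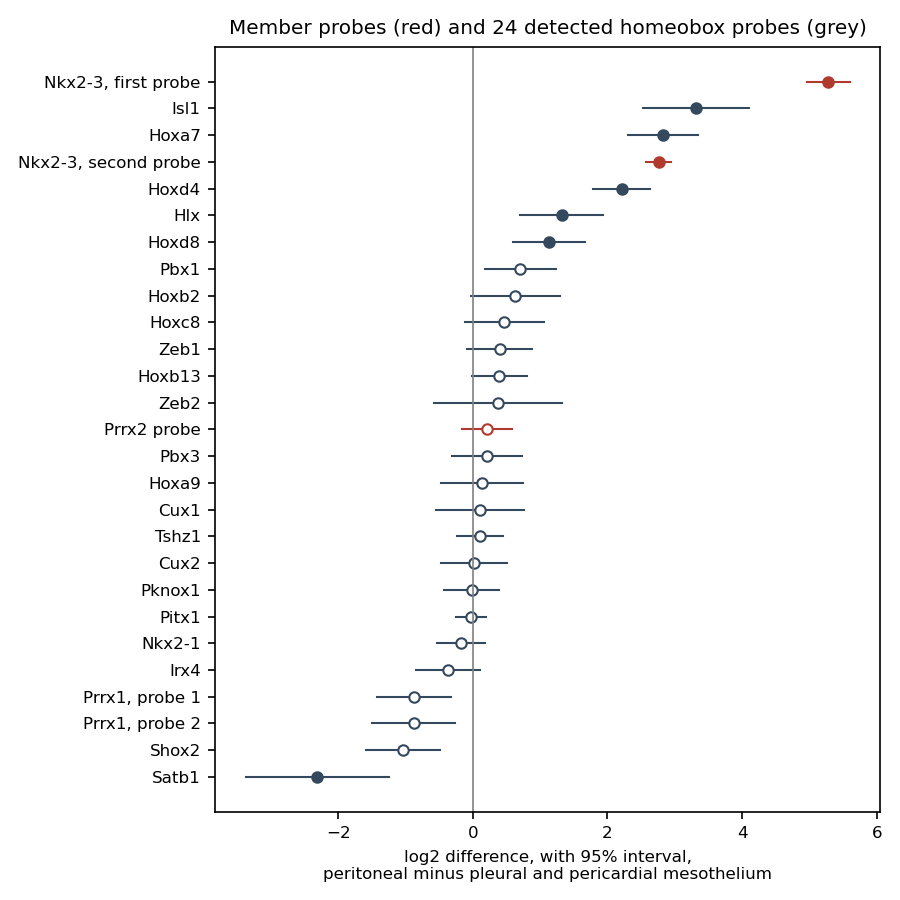
Log2 difference between peritoneal and pleural and pericardial mesothelium (horizontal axis) with 95% intervals for the 3 member probes (red) and the 24 detected homeobox probes (grey), in order of the difference. Filled circles are called, and the first Nkx2-3 probe at 5.28 stands at one end and Satb1 at -2.31 at the other.

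Prrx1 and 4 other Nkx2 genes had a named probe, and of these Nkx2-1 and Prrx1 were detected. Nkx2-1, the NK2 factor of lung and thyroid, was detected on 3 of 3 lung arrays, at 11.45 to 12.18, and on no other array, and its highest mean elsewhere was 5.14 in heart. The probes of Nkx2-2, Nkx2-4 and Nkx2-9 were detected on 0 of 24 arrays, so they show no pattern. Prrx1, the paralog of Prrx2, had 2 probes, both with the highest means in skeletal muscle (8.42 and 7.91) and heart (8.35 and 7.85). Between the mesothelium sources neither Prrx1 probe was called. Their log2 differences, peritoneal minus pleural and pericardial, were -0.88 and -0.87 (adjusted p = 0.103 and 0.0621, limma). In peritoneal mesothelium neither Prrx1 probe was detected, at means of 5.75 and 5.37. In pleural and pericardial mesothelium they were detected on 3 and 2 of 3 arrays, at 6.63 and 6.25, with log2 differences from heart of -1.72 and -1.60 (adjusted p = 0.000215 and 0.000157, limma). Prrx2 was not detected in heart or skeletal muscle, where the weakest detected signals were 6.51 to 6.69 and 6.84 to 7.07. Its means in the mesothelium sources were 6.67 and 6.46, so a like level could have been missed there.

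**Figure D5:**
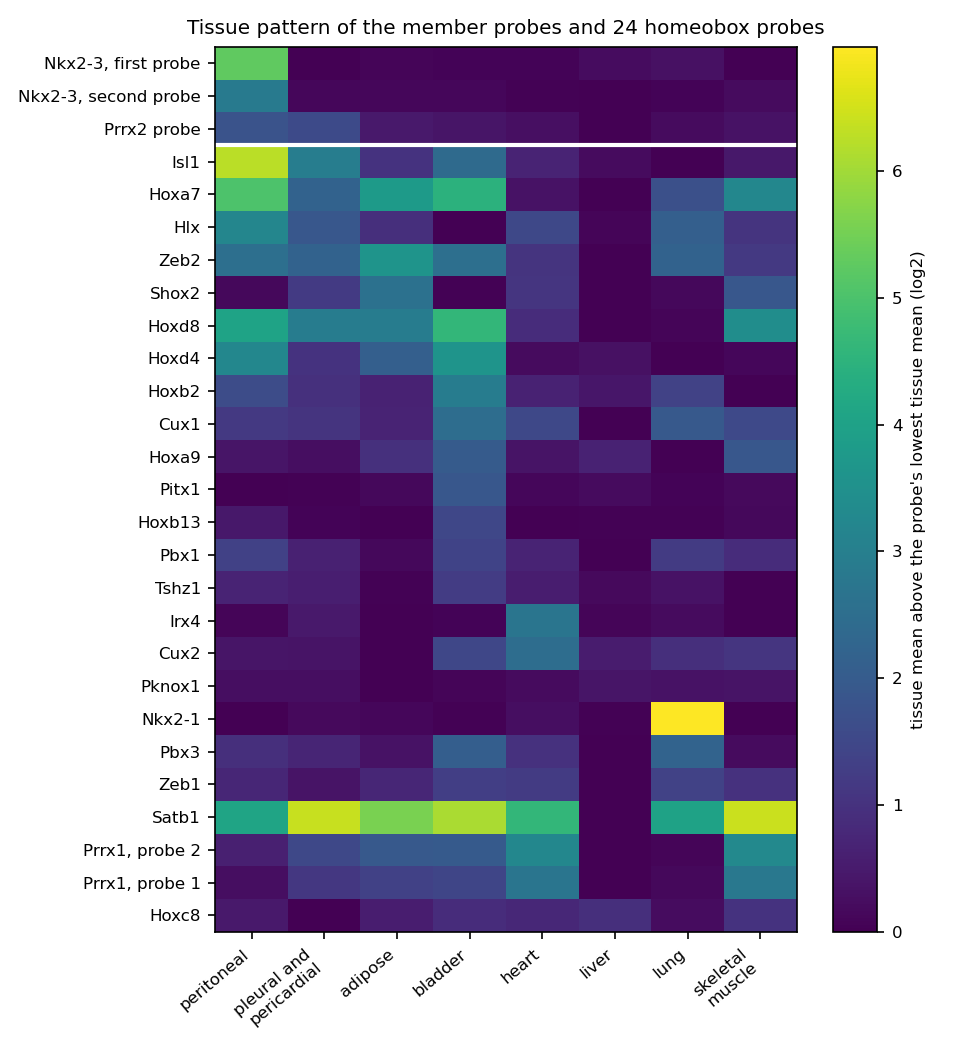
Tissue mean above the probe's own lowest tissue mean (colour, log2) for the member probes (above the white line) and the 24 detected homeobox probes, by tissue. The first Nkx2-3 probe stands out in the peritoneal column and Prrx2 in both mesothelium columns, whereas Nkx2-1 stands out in lung and the 2 Prrx1 probes in heart and skeletal muscle.

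Among the 11 transcription factors that the table names besides the members, 8 (72.7%) were called higher in peritoneal mesothelium and 1 (9.09%) lower. Over all probes these shares were 2.16% and 1.42%. Of the 8, Dmrt3 was detected on 0 arrays and Fosb on 2 of 3 peritoneal arrays and no other. All 11 were chosen on these arrays, so their direction is not independent. Hif3a, a hypoxia-inducible factor subunit, was higher by 2.46 and Etv1, an ETS factor, by 2.09. Wt1, the mesothelial zinc-finger factor, was higher by 1.44, a call at the threshold (B-statistic 0.038, adjusted p = 0.00833, limma). Zbtb32, a zinc-finger factor of lymphocytes, was lower, with a difference of -1.67. Of the 2 mesoderm factors with a named probe, Tbx18, a T-box factor of the epicardium, was lower in peritoneal mesothelium, with a difference of -1.86 (adjusted p = 0.000141, limma) and was detected on the 3 pleural and pericardial arrays alone. Gata4 was detected in heart alone and differed between the sources by -0.22 (adjusted p = 0.871).

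The named probes most like each member over the 24 arrays were found by Pearson r among 15537 detected probes. For the first Nkx2-3 probe they were Nlgn1 (0.986), Cd109 (0.973), Trim9 (0.972), the defensin AY761185 (0.969) and Gabrb1 (0.966). For the second they were Nlgn1 (0.982), Kcnab1 (0.977), Trim9 (0.975), Cd109 (0.972) and the defensin Defa6 (0.971). All 7 of these genes were detected on the 3 peritoneal arrays and on at most 1 other array, so a high r mainly says that the probe is high in peritoneal mesothelium. All 7 are also named by the study's table, which chose its probes on these same arrays, so the likeness is in part built in. Nlgn1, a synaptic adhesion protein, came first for both, with a mean of 7.08 in peritoneal mesothelium and at most 5.13 in any other tissue.

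For Prrx2 the most alike were Cldn15 (0.942), a tight-junction claudin, Aplp1 (0.933), Tmem151a (0.913), Aldh1a2 (0.911), the enzyme that makes retinoic acid in mesothelium, and Acot11 (0.910). Their means in peritoneal mesothelium exceeded those in pleural and pericardial mesothelium by little for Cldn15, at 8.17 and 7.98, and by more for Tmem151a, at 7.28 and 6.20. An r above 0.9 was reached by 43 and 48 probes for the 2 Nkx2-3 probes and by 13 for Prrx2. The genes listed for Prrx2 are likewise all named by the study's table, so their likeness too is in part built in. The points of these correlations share arrays and normalization, and most of them lie below detection.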

How the data were processed

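The authors summarized the arrays in BeadStudio and deposited signal intensity per probe, background-subtracted, with a detection score, a fraction from 0 to 1 that is 1 minus a detection p. They also deposited intensity quantile normalized with Lumi. Of the signals 36% were at or below 0. From these files the signals were corrected by limma's normexp with negative controls inferred from the scores (1616 steps, with 10 probes off the steps left out of this inference), an offset of 16 was added, and the arrays were quantile normalized and put on the log2 scale. A limma model (version 3.58.1, R 4.3.3) took 1 mean for each tissue from the 24 arrays (prior proportion of differing probes 0.01), with Benjamini-Hochberg adjustment over all probes of a comparison. The script was tested on simulated data. Detected probes numbered 8862 to 13441 per array, and replicates of a tissue correlated at 0.942 to 0.993. The number of arrays limits the precision.

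Members and gene lists were chosen with earlier results of these data known. Named are the 3 member probes, the transcription factor, homeobox and marker lists, and the 5 named probes with the highest Pearson r to each member. The study's own table gave 350 probe names and Gene numbers gave a further 9735, and other probes are not named here. Of the tissue checks only Myh6 and Apoa1 had a named probe, with log2 signals of 12.33 to 13.40 in heart and 15.84 to 15.94 in liver, and both were also detected in mesothelium. Svs5, of the male accessory gland, was at 10.01 to 12.45 in peritoneal mesothelium. The B-lineage pair Tnfrsf17 and Cxcl13 summed to 13.17 to 13.57 in pleural and pericardial mesothelium. Pairing by replicate number was checked. The deviations of same-numbered arrays of the 2 mesothelium sources correlated at 0.605, 0.589 and 0.63, so these arrays varied together. This was not particular to mesothelium. Of 28 pairs of tissues 7 had every such correlation over 0.1, among them lung and skeletal muscle at 0.257 to 0.433. A block by replicate number was run as an alternative because the methods name none. The alternatives were other background corrections, offsets, normalizations, filters, thresholds and arrays.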

Additional observations from a re-analysis of the deposited data

Results flagged for a closer look

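Nkx2-3 differed in its excess over the same 6 tissues between the 2 sources of mesothelium. The study's table placed it, from these same arrays, among the probes enriched in the peritoneal source only, which builds in part of this difference, so the p-values are not independent evidence. By the first probe the log2 difference between peritoneal and pleural and pericardial mesothelium was 5.28 (limma adjusted p = 2.82e-14), with all 3 peritoneal arrays above all 3 of the other source. By the second it was 2.76 (adjusted p = 1.13e-13), again with 3 of 3 arrays above. Prrx2 differed by 0.21 (adjusted p = 0.763). No group had enough arrays for a search for single arrays far from the rest.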

How the results depend on the processing

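The peritoneal excess of the first Nkx2-3 probe kept its call under all 9 alternatives, at 2.16 to 6.44 over the closest of the 6 tissues and 2.20 to 7.05 over pleural and pericardial mesothelium, and without any 1 array, at 4.83 to 5.12 and 5.18 to 5.44. The second probe kept its call between the sources at 0.37 to 4.22 and without any 1 array at 2.73 to 2.79. Over the 6 tissues it lost the 2-fold size when all rows entered the inference of negative controls, at 0.36, a setting that raised the inferred noise. Prrx2 was not called between the sources under any alternative (adjusted p 0.553 to 0.996, and 0.412 to 0.993 without 1 array). Its peritoneal and its pleural and pericardial enrichment lost the 2-fold size with arrays shifted to a minimum of 1, at 0.89 and 0.75, with an offset of 50, at 0.86 and 0.71, and with all rows in the inference, at 0.13 and 0.11. With only the 6 arrays of a pair the pleural and pericardial value stayed 1.10 but was no longer called. Without 1 array it was 0.98 to 1.33. Of the 15 comparisons among other tissues, 2 were called for the first Nkx2-3 probe with median scaling, 1 for the second with shifted arrays, and for Prrx2 3 with shifted arrays and 1 each with the authors' values, with detected probes alone, with the 6 arrays of the pair and with the replicate block, and 0 to 1 without 1 array. The replicate block changed no other call of a member.

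The count of homeobox probes higher in peritoneal mesothelium was 3 with the authors' values and with detected probes alone, and 3 to 5 without 1 array. The count of lower ones was 0 with an offset of 50, all rows in the inference, the 6 arrays of the pair or the replicate block, 2 by adjusted p alone, and 0 to 3 without 1 array. The higher transcription factors of the table numbered 5 with detected probes alone, a filter that kept 9 of the 11. Dmrt3 and Fosb, both called higher in the main fit, were left out by it, which does not account for the whole drop from 8. Hlx, Hoxd8 and Satb1 lost their calls under 4, 3 and 4 of the 9 alternatives, the block among them for Hoxd8 and Satb1. Over all probes, 994 higher and 653 lower between the sources became 1572 and 1105 by adjusted p alone, and 641 were higher with the 6 arrays of the pair. The probes enriched in peritoneal and in pleural and pericardial mesothelium, 319 and 202, became 172 and 112 with all rows in the inference and 197 and 80 with the 6 arrays of the pair. Apart from probes left out by the filter, the causes of these changes were not tested. Slides were not used as a block, since the file headers give none. Signals near background limit Prrx2, and ratios over undetected tissues are bounds.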
